A study of Zea mays with 36 samples.

Results

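In developing maize embryos, 81 of 63340 features were read in a high-oil line at every age and were nearly unread in a low-oil line. They are called high-oil-only features here, and members in the plots. They were chosen by their values: at least 1 RPKM in each of the 18 high-oil libraries and below 0.1 RPKM in each of the 18 low-oil libraries. RPKM is the number of reads per 1000 bases of a feature and per 1000000 reads of the library. Because the rule used these values, the difference between the lines is described and not tested. The name is no more than the rule: 79 of the 81 features had some reads in the low-oil line.

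The study set embryos of a high-oil maize line (Zea mays) beside those of a low-oil one at 6 ages, 5 days apart, the youngest at 15 and the oldest at 40 days after pollination. Every line and age had 3 libraries of poly(A)-selected RNA, 36 in all. All seeds, of both lines and of every age, were left in water overnight before the embryo was taken out. With 1 line for each oil level, oil content and all other differences between the lines cannot be told apart. The labels leave it unsaid whether the 3 libraries of a group came from separate plants, so a p-value here measures a spread between libraries that may be technical. High-oil library totals ran from 41247297 to 66760746 reads, low-oil totals from 43776538 to 65339201. The lowest mean correlations with libraries of their own group were 0.934, for high-oil 40-day replicate 1, and 0.938, for high-oil 35-day replicate 2.

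As background, the maize embryo stores most of the oil of the kernel. Maize lines are known to differ in which genes they carry, in the sequence of shared genes and in where and when genes are used. A feature defined on 1 reference genome can be read in a single line for any of these reasons, and in RPKM values they cannot be told apart. The IDs of these features could not be tied to gene names or functions: 0 of the 81 matched the reference table used here, which belongs to another assembly. The same limit prevented a check of the embryo label against marker genes.

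Of the 81 high-oil-only features, 52, or 64.2%, had only a running number as a name (such as Novel11240), and 29, or 35.8%, had an annotated gene ID. None was an ENSRNA noncoding RNA or a microRNA precursor. How the features with a running number were defined is not stated in the sources used here, nor whether reads of these libraries were used for it. Running numbers made up 3.94% of the 16656 features that reached 1 RPKM in every high-oil library, and 26.8% of the whole table. The features with the reverse pattern, 1 RPKM or more in every low-oil library and under 0.1 in every high-oil library, had nearly the same make-up. They numbered 57, of which 36, or 63.2%, had a running number.

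The share of running numbers was lower where the low-oil level was higher. Among features at 1 RPKM or more in every high-oil library, 34 peaked between 0.1 and 0.2 RPKM in the low-oil line, and 55.9% of them had a running number. Of the 41 that peaked between 0.2 and 0.5 RPKM it was 39.0%, of the 18 between 0.5 and 1 RPKM it was 38.9%, and of the 40 between 1 and 2 RPKM it was 20.0%. Of the 16442 that reached 2 RPKM or more in a low-oil library, 3.38% had one.

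The lengths implied by the RPKM steps ran from 242 to 4317 bases, with a median of 1035. The 52 features with a running number had a median of 948 bases, against 905 for the 657 such features that reached 1 RPKM in every high-oil library. The 29 annotated genes had a median of 1226 bases, against 1728 for the 15941 annotated genes of that level. The limit of 0.1 RPKM bears on length. In the shallowest low-oil library it equals 1 read for a feature of 228 bases, and for the median length of 1035 bases it lay between 4.53 reads in the shallowest and 6.76 in the deepest low-oil library.

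Within the limits of the rule, expression in the high-oil line was low to moderate. The mean over the 18 high-oil libraries ran from 1.73 to 26.9 RPKM over the 81 features, with a median of 5.72, while the median over all 16656 features of that reach was 11.6. Of the 81, 16 averaged 10 RPKM or more and 35 averaged less than 5. The 52 running numbers had a median of 5.77, against 6.10 for the 657 of their class at that reach. The 29 annotated genes had 5.72, against 11.9 for the 15941 of theirs. The low-oil limit bears on level too: Novel05525, with a high-oil mean of 37.8 RPKM, missed the rule by its low-oil maximum of 0.137. In the low-oil line the means ran from 0 to 0.0478 RPKM, with a median of 0.00866.

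**Figure D1:**
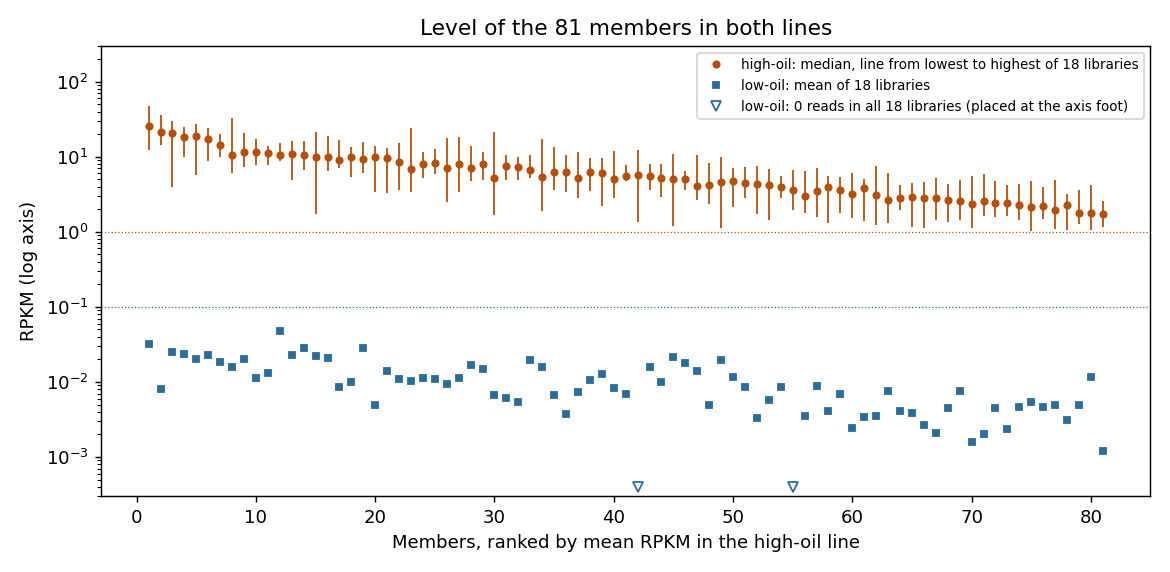
RPKM on a log axis for the 81 high-oil-only features, ranked by their mean in the high-oil line. Orange points are medians and orange lines run from the lowest to the highest of 18 high-oil libraries; blue squares are means of 18 low-oil libraries, and 2 open triangles mark features with 0 low-oil reads. Dotted lines are the limits of the rule at 1 and 0.1 RPKM, which fix the empty band between the lines.

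The annotated gene Zm00001d013831, 1811 bases long, was the highest. It had 12.2 RPKM in its lowest, 25.4 in the median and 48.0 in its highest high-oil library, against 0, 0.0285 and 0.0813 RPKM in the low-oil libraries. This gene had 44783 high-oil reads in all against 56 low-oil reads, a ratio of read shares of 832 with a 95% counting interval of 640.5 to 1101. Because the rule used the values of both lines, such intervals, here and below, are no test of the difference between the lines. They pool the 18 libraries of a line and leave out the spread between them. The annotated gene Zm00001d001529, of 261 bases, had 14.2, 21.6 and 36.4 RPKM as lowest, median and highest high-oil values, and reads in only 2 of 18 low-oil libraries. It had 5291 high-oil reads against 2 low-oil reads.

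The next 3 carried running numbers. Novel11240, of 2506 bases, had 3.96, 20.5 and 29.9 RPKM as lowest, median and highest high-oil values, against a low-oil maximum of 0.0870. Novel01226, of 3992 bases, had 9.82, 18.5 and 24.9 RPKM, against a low-oil maximum of 0.0490. Its 92 low-oil reads were spread over 17 of the 18 low-oil libraries, with 0 to 12 reads per library. Novel02219, of 401 bases, had 5.73, 19.2 and 27.1 RPKM, against a low-oil maximum of 0.0999, which was the value nearest to the limit.

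Both of the features without any low-oil read were short, and are named for that. Novel01278, of 242 bases, had between 1.37 and 12.2 RPKM in the high-oil libraries (median 5.79). Its 1259 high-oil reads put the high-oil share at least 437-fold higher, with a floor of 3 reads, taken as independent, over the 18 low-oil libraries. Novel10979, of 397 bases, had between 1.97 and 6.69 RPKM (median 3.65), and by the same floor its 1480 reads make it at least 513-fold higher.

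The low-oil reads of the high-oil-only features were few in every library and more frequent in features with a higher high-oil level. The 81 features together had 33428 to 56191 reads per high-oil library and 42 to 109 per low-oil library. Per 1000000 reads of a library this was 808 ± 74.8 in high-oil embryos, against 1.33 ± 0.341 in low-oil embryos (SD, n = 18 each). Between 42 and 61 of the 81 features were without reads in any single low-oil library. The low-oil level of a feature was 0.132% of its high-oil level in the median, with quartiles of 0.0989% and 0.217%. The 57 features with the reverse pattern had a high-oil level of 0.169% of their low-oil level in the median, with quartiles of 0.125% and 0.218%. Over the 81 features, reads per base in the 2 lines had a Spearman correlation of 0.736, a description over features that share libraries, lengths and a selection on both values. Where those low-oil reads came from was not tested.

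The feature with the highest residue was Zm00001d048839, an annotated gene of 1391 bases. It had 2494 high-oil reads against 16 low-oil reads, a low-oil level of 0.617% of the high-oil one. The ratio was 162, with a counting interval of 99.6 to 284. These intervals treat reads as independent, which may not hold: among the 481 low-oil values above 0, 2 reads occurred 217 times and 1 read 121 times. Whether both ends of a fragment were counted is not given in the sources used here, and the intervals cover counting error only.

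**Figure D2:**
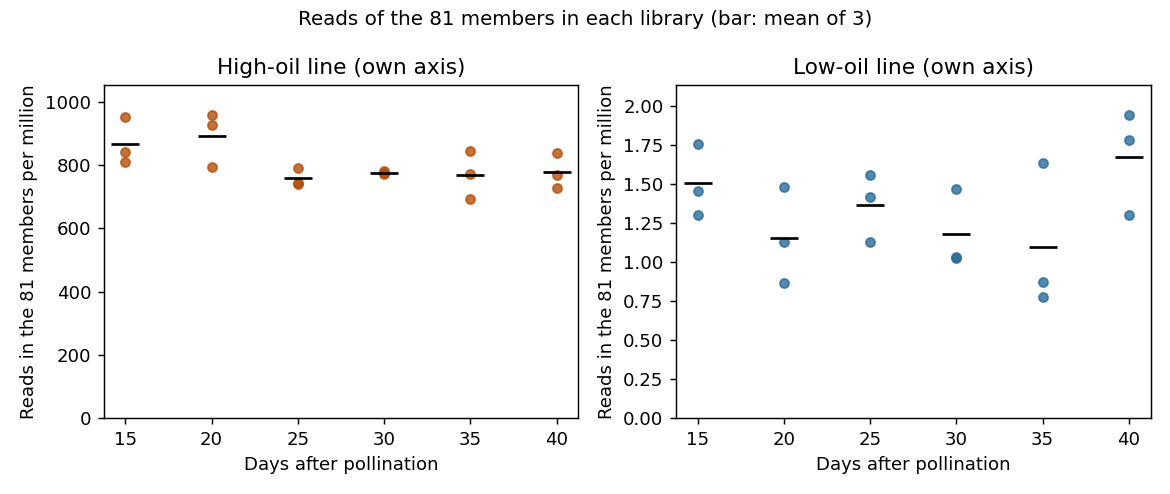
Reads in the 81 high-oil-only features per 1000000 reads of a library, by days after pollination, with the high-oil line on the left and the low-oil line on the right, each on its own axis from 0. Points are libraries and bars are means of 3: all high-oil libraries lie between 694 and 958 such reads and all low-oil libraries between 0.776 and 1.94.

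The limits of the rule cut through a continuous range. Just inside the high-oil limit lay Novel10898, Zm00001d048839 and Novel11073, whose lowest high-oil values were 1.04, 1.06 and 1.06 RPKM. Just outside it lay Novel07002, Zm00001d023017 and Novel06397, which each missed 1 RPKM in a single high-oil library, at 0.986, 0.978 and 0.959 RPKM. Just inside the low-oil limit were Novel02219, Novel04515 and Zm00001d029722, with low-oil maxima of 0.0999, 0.0976 and 0.0963 RPKM. Just outside were Novel01701, Novel06186 and Novel07234, at 0.101, 0.102 and 0.104 RPKM in 1 low-oil library each. Leaving out single libraries gave between 81 and 85 features. The rule also leaves out features that were on for part of the course: 465 features were below 0.1 RPKM in all low-oil libraries and reached 1 RPKM in at least 3 high-oil libraries, and 128 reached it in at least 15.

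The change with age within the high-oil line was not used by the rule, except that no feature could drop below 1 RPKM, and it was tested. In whole embryos, fewer cells of a type and less RNA per cell cannot be told apart. Few high-oil-only features were called between the ends of the course, but features of low level could not be called as falls. On log2(RPKM + 1) and with the floor of 1 RPKM, Novel11302, at 2.03 RPKM at 15 days, could not fall by 1 log2 unit. The 16656 features of at least 1 RPKM in every high-oil library share this floor. Of the 81, 8 were called between 40 and 15 days, or 9.88% (limma on log2(RPKM + 1), with a change of 1 log2 unit or more and an adjusted p below 0.05). Over all 28048 features tested 31.5% were called, and over the 16656 features with at least 1 RPKM in every high-oil library 29.6%. The annotated and the numbered features each lay below the share of their own class among all features tested. Of 29 annotated genes 4 were called, 13.8% against 33.5%, and of 52 running numbers 4, 7.69% against 21.2%. All 4 called running numbers fell. Of all running numbers tested 15.5% rose and 5.68% fell, so the numbered features lay lower in rises and not in falls. Of the 657 running numbers of at least 1 RPKM in every high-oil library 118 were called. Of these 657, 8.98% rose and 8.98% fell. Of the 12956 features within the same range of mean level, 25.0% were called. No test was made of these differences in share. With a pseudocount of 0.1 in place of 1, 13 of the 81 were called, against 39.2% of all features tested.

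The direction of these calls depended on the scaling. On the deposited values 1 feature rose, against a background of 10.3% of all tested features, and 7 fell, against 21.2%. With median-of-ratios scaling there were 7 rises and 4 falls among the 81, where 14.1% of all features tested rose and 13.8% fell. That scaling moved the median log2 change of all features to 0.03, against -0.24 as deposited, and the median of the 81 to 0.31, against -0.07. On both scales the median of the 81 lay above that of all features. With high-oil 40-day replicate 3 left out 13 were called, and without the 2 high-oil libraries of lowest correlation 7.

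**Figure D3:**
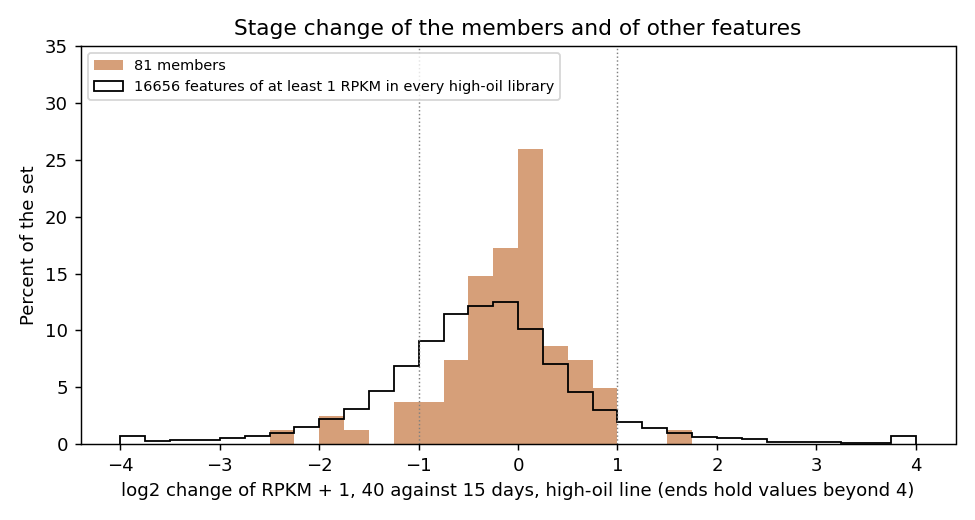
Histogram of the log2 change between 40 and 15 days in the high-oil line for the 81 high-oil-only features (filled) and for the 16656 features of at least 1 RPKM in every high-oil library, which include them (outline), each as percent of its set. Dotted lines mark a change of 1 log2 unit, which 8 of the 81 features passed with an adjusted p below 0.05.

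The feature that rose was the annotated gene Zm00001d031563, of 900 bases. In replicates 1 to 3 it had 4.38, 3.64 and 5.79 RPKM at 15 days, 4.65, 3.42 and 3.72 at 20 days, then 6.34, 5.99 and 6.81 at 25 days. It had 12.5, 6.76 and 8.47 RPKM at 30 days, 6.92, 13.6 and 15.8 at 35 days, then 24.2, 11.5 and 13.8 at 40 days. All 40-day values lay above all 15-day values. The mean was 16.5 ± 6.76 RPKM at 40 days, against 4.60 ± 1.09 at 15 days (SD, n = 3 each; limma, log2 change 1.60, SE 0.23, adjusted p 8.5e-07). It was called between 40 and 15 days under all 26 alternatives, though those that leave out a 20- to 35-day library do not move this change. The change between 40 and 25 days was called as well (log2 1.18, SE 0.23, limma adjusted p 0.00023), but without high-oil 40-day replicate 1 it was 0.89, under 1 log2 unit.

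Novel14248, of 437 bases, fell most. It had 21.7, 17.5 and 16.4 RPKM at 15 days, 7.68, 15.3 and 12.5 at 20 days, then 5.92, 6.46 and 6.21 at 25 days. At 30 days it had 2.91, 3.90 and 4.42 RPKM, at 35 days 3.56, 4.13 and 2.47, and at 40 days 3.36, 3.07 and 1.68. The 15-day values lay above those of every later age. The mean fell to 2.70 ± 0.899 RPKM at 40 days, against 18.5 ± 2.80 at 15 days (SD, n = 3 each; limma, log2 change -2.42, SE 0.19, adjusted p 9.2e-12). Between 25 and 15 days it had already changed (log2 change -1.43, SE 0.19, limma adjusted p 5.4e-07).

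Zm00001d024838, an annotated gene of 345 bases, was another fall. It had 21.3, 17.3 and 19.1 RPKM at 15 days, 16.2, 9.52 and 14.0 at 20 days, then 11.5, 15.2 and 14.7 at 25 days. It had 7.59, 9.56 and 10.4 RPKM at 30 days, 5.40, 2.89 and 5.92 at 35 days, then 1.74, 6.38 and 5.86 at 40 days. The mean was 4.66 ± 2.55 RPKM at 40 days, against 19.2 ± 2.01 at 15 days (SD, n = 3 each; limma, log2 change -1.96, SE 0.25, adjusted p 1.1e-07). The change between 40 and 25 days was called (log2 -1.50, limma adjusted p 3.5e-05), and the value of -0.46 between 25 and 15 days did not pass (limma adjusted p 0.14). All 20-day and 25-day values lay below all 15-day values, so a fall before 25 days is not excluded.

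Novel10641 and the annotated gene Zm00001d015709 fell early. Novel10641 had 4.45, 1.91 and 3.11 RPKM at 40 days, against 17.5, 12.8 and 14.0 at 15 days, and the 40-day and 15-day values did not overlap (limma, log2 change -1.96, SE 0.19, adjusted p 8e-10). Zm00001d015709 had 7.72, 3.78 and 3.38 RPKM at 40 days, against 17.2, 17.8 and 17.6 at 15 days (limma, log2 change -1.71, SE 0.23, adjusted p 4.7e-07). The lowest stage mean of Zm00001d015709 was 3.56 ± 1.32 RPKM at 30 days. With Novel14248, these were the 3 features called between 25 and 15 days, all of them falls. The background for that comparison was 19.3% of all tested features, and the share of the 81 was 3.70%. Of the features of at least 1 RPKM in every high-oil library 18.2% were called, and 14.1% of those in the same range of mean level. With a pseudocount of 0.1 there were 6 calls among the 81 and 24.9% over all features, and with limma-voom on the reads 7 and 24.1%. Rises had a background of 5.83% and falls of 13.5%. Median-of-ratios scaling also gave 3 calls, as 2 rises and 1 fall (8.03% and 6.63% over all features), with Novel10641 at -0.74 and Zm00001d015709 at -0.66 under 1 log2 unit. Novel10641 was at -0.99 without high-oil 15-day replicate 1, and Zm00001d015709 at -0.91 without high-oil 25-day replicate 3.

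The other 3 falls between 40 and 15 days were less firm. Novel06980 fell to 1.53 ± 0.348 RPKM at 40 days, against 4.96 ± 0.788 at 15 days (SD, n = 3 each; limma, log2 change -1.24, adjusted p 1.1e-07), and lost its call with median-of-ratios scaling, at -0.92. Zm00001d013831 fell to 19.2 ± 3.56 RPKM at 40 days, against 41.1 ± 7.30 at 15 days (log2 change -1.06, limma adjusted p 2.8e-06). Without high-oil 40-day replicate 1 its change was -0.90, and without high-oil 15-day replicate 1 -0.94, both past the adjusted p but under 1 log2 unit, and with median-of-ratios scaling it was -0.65. Novel11240 had 3.96, 21.6 and 22.3 RPKM at 40 days, against 27.4, 23.2 and 29.9 at 15 days. Its call (log2 change -1.01, limma adjusted p 0.0078) rested on high-oil 40-day replicate 1, without which the change was -0.27. It was also lost without high-oil 15-day replicate 1 (-0.99) or 3 (-0.93), with median-of-ratios scaling (-0.62), and in a fit of the high-oil libraries alone (-1.01, limma adjusted p 0.06).

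**Figure D4:**
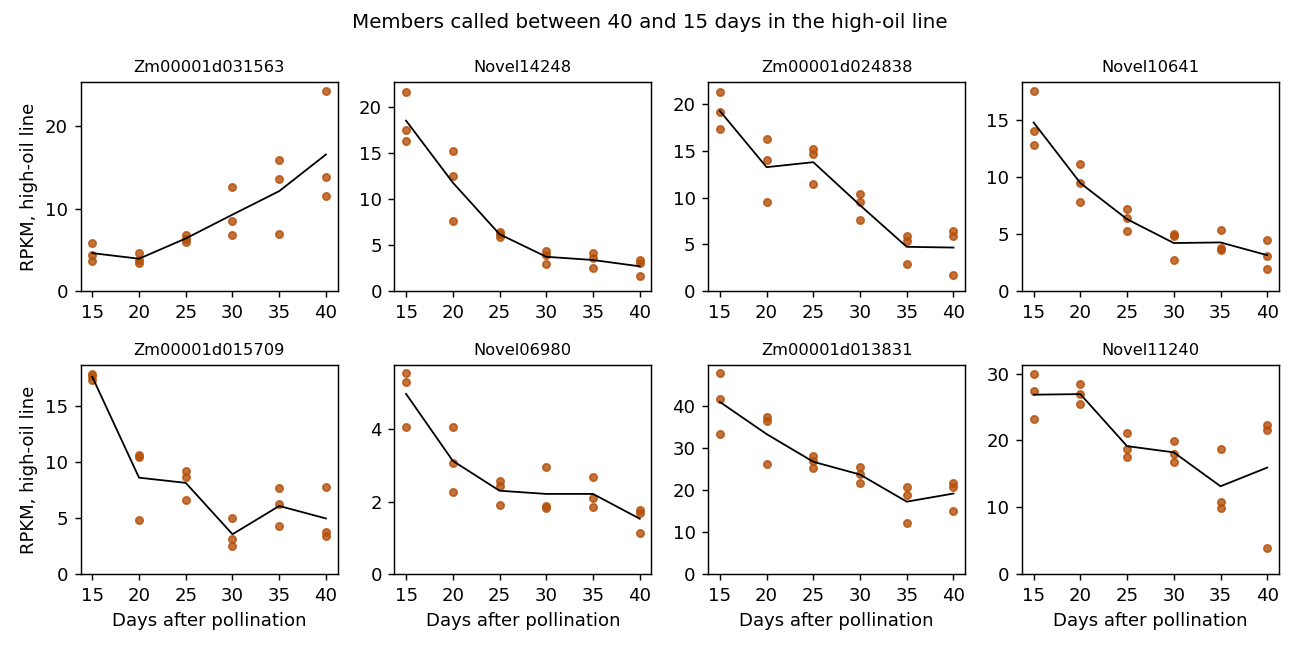
RPKM in the high-oil line by days after pollination for the 8 high-oil-only features called between 40 and 15 days, each panel on its own axis from 0. Points are libraries, 3 per age, and lines join stage means: Zm00001d031563 goes up over the course, the other 7 go down, and Novel11240 has 1 of its 3 libraries at 40 days far below the other 2.

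Between 40 and 25 days 2 of the 81 features were called, Zm00001d031563 and Zm00001d024838, a share of 2.47% against a background of 13.2%. Of the 16656 features of at least 1 RPKM in every high-oil library 1669 were called, and 7.75% of those in the same range of mean level. A pseudocount of 0.1 gave 8 calls among the 81, as did limma-voom on the reads, where 17.8% and 17.1% of all features were called. The 2 calls became 5 without high-oil 40-day replicate 2 and 4 without high-oil 40-day replicate 1 or 3. In the test over all 6 ages, 18 of 81 features changed by at least 1 log2 unit between their highest and lowest stage mean (limma F test), 22.2% against a background of 42.2%. Over features of at least 1 RPKM in every high-oil library it was 41.2%, and 35.7% over those in the same range of mean level. Of these 18, 12 had a running number and 6 were annotated genes. Under all alternatives 5 of the 18 kept this call: Zm00001d031563, Novel14248, Zm00001d024838, Novel10641 and Zm00001d015709.

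Novel11986 and Novel09432 were highest at 20 days. Novel11986, of 975 bases, had 4.24 ± 0.785 RPKM at 15 days, 6.54 ± 0.826 at 20 days and 3.38 ± 0.585 at 25 days (SD, n = 3 each; limma F test over the 6 ages, log2 range 1.28, adjusted p 1.7e-05). Its replicates at 20 days, with 5.60, 7.13 and 6.90 RPKM, were above all values of every other age. With median-of-ratios scaling its log2 range was 0.997, under 1 log2 unit, and the call was lost. Novel09432, of 1243 bases, had 5.15 ± 1.36 RPKM at 15 days and 12.9 ± 2.51 RPKM at 20 days (SD, n = 3 each; limma F test, adjusted p 0.023). From 25 days on it stayed between, with replicates far apart, as in the 14.3, 3.72 and 8.44 RPKM at 35 days. Its call was lost without high-oil 15-day replicate 3, 20-day replicate 2 or 20-day replicate 3 (limma adjusted p 0.11, 0.076 and 0.06). It was also lost in a fit of the high-oil libraries alone (limma adjusted p 0.2), at a pseudocount of 0.1 (0.065) and by limma-voom (0.058).

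Other courses were less firm or less large. Zm00001d003646, an annotated gene of 1652 bases, had 4.07 ± 0.319 RPKM at 15 days, 5.44 ± 0.370 at 20 days, 2.69 ± 0.496 at 25 days, 3.05 ± 0.457 at 30 days, 6.45 ± 0.598 at 35 days and 5.94 ± 0.655 at 40 days (SD, n = 3 each; limma F test, adjusted p 2.5e-08). All its values at 25 and 30 days lay below all values of the other ages. Without high-oil 25-day replicate 2 its range was 0.90, and without 35-day replicate 2 it was 0.96, both under 1 log2 unit. The annotated gene Zm00001d006586, of 859 bases, had 8.18 ± 2.20 RPKM at 20 days and 3.30 ± 0.541 at 35 days. These were its highest and lowest stage means (limma F test, log2 range 1.07, adjusted p 5.5e-06). Its range was 0.90 without high-oil 20-day replicate 2 and 0.82 with median-of-ratios scaling. Novel08284 was lowest at 20 days, with 2.44 ± 0.714 RPKM, and highest at 35 days, with 6.17 ± 1.67 RPKM (limma F test, log2 range 1.05, adjusted p 6.4e-06), with a range of 0.90 without high-oil 20-day replicate 1. Novel05526 had 9.55 ± 1.03 RPKM at 40 days, against 4.66 ± 1.85 at 15 days, with all 40-day values above all 15-day values. Its log2 change of 0.94 passed the adjusted p (limma, 0.00079) but not the minimum of 1 log2 unit. Of the 81 features, 29 had an adjusted p below 0.05 between 40 and 15 days, 12 of them with a positive and 17 with a negative change. Over all features tested 54.8% did, 17.3% with a positive and 37.4% with a negative change.

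The stage mean was highest at 20 days in 25 of the 81 features and at 15 days in 22. It was lowest at 25 days in 23 and at 35 days in 18. Of the 16656 features of at least 1 RPKM in every high-oil library, 50.4% were highest at 15 days and 15.3% at 20 days. Of the same 16656, 17.8% were lowest at 25 days and 26.2% at 35 days. Stage means within a feature were often closer than their replicates, so these are orders and not tested peaks.

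The steadiest feature was the annotated gene Zm00001d030370, of 2305 bases, by the ratio of its highest to its lowest stage mean, 1.17. It had 5.39 ± 0.263, 6.11 ± 0.0677, 5.52 ± 0.298, 5.48 ± 0.815, 6.31 ± 1.24 and 5.51 ± 0.878 RPKM from 15 to 40 days (SD, n = 3 each). Novel13165 followed with a ratio of 1.24 and stage means between 8.76 and 10.8 RPKM, then Novel02501 with 1.29 and means between 6.67 and 8.63. Over the 81 features the median of this ratio was 1.80, against 1.93 over the 12956 features within the same range of mean level. Replicates varied more, with a median CV of 21.2% among the 3 libraries of an age, against 15.8% for those 12956 features. The 12956 were matched on the outer range of mean level only. The 81 were shorter than the 16656 features of at least 1 RPKM in every high-oil library, with a median of 1035 against 1692 bases. Their median level was lower too, at 5.72 against 11.6 RPKM. The part of length and level in this spread was not tested.

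The high-oil-only features did not move as a block. Over the 18 high-oil libraries the median Pearson correlation of log2(RPKM + 1) among their 3240 pairs was 0.07, 15 pairs reached 0.8, and 1350 pairs were below 0. The closest pair was Zm00001d013831 and Novel06465, with 0.91, followed by Novel10029 and Zm00001d024838 with 0.90. The most opposed were Zm00001d029705 and Zm00001d024838, at -0.87. These are descriptions over libraries that share an age course, and no such values are given here for pairs of other features.

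Features with adjacent numbers in their IDs were compared next. Gene IDs of this annotation in general follow the order along the chromosomes. Whether the running numbers do so is not stated. A neighbour is called by the limits given above, with limma on the line difference averaged over the ages. The neighbours described here failed the rule, which was applied to their values too. These calls are therefore used as a description only and not as a test of the neighbours. The neighbours were looked at after other values had been seen. Of the 46 annotated genes numbered directly before or after a high-oil-only gene, 20 passed the filter on low values and 3 were called, 15.0%. Of all annotated genes tested 4.39% were called. Of the 100 such running numbers 31 were tested and 7 called, 22.6%, against 13.9% of all running numbers tested. The share over all features tested was 5.83%. The counts are small, the rule bears on them, and nothing is read from them.

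Of the 10 called neighbours, 2 were nearly unread in the high-oil line and read in the low-oil line, though neither meets the limits of the reverse pattern given above. Zm00001d033400, a high-oil-only gene of 744 bases, had 5.21, 6.63 and 10.6 RPKM as lowest, median and highest high-oil values, against a low-oil maximum of 0.0614. The gene numbered just before it, Zm00001d033399, of 351 bases, had 0, 0 and 0.111 RPKM as lowest, median and highest high-oil values, against 3.51, 7.70 and 10.8 in the low-oil line. The level of the 1 ID in its line was thus close to that of the other ID in the other line, with 5 high-oil and 2613 low-oil reads in Zm00001d033399 (log2 difference -3.01). Novel08284, of 671 bases, had a high-oil median of 4.35 RPKM and 2 low-oil reads in all. Novel08285, of 205 bases, had 4 reads in all in high-oil embryos, against a median of 3.85 RPKM in the low-oil line (log2 difference -2.09).

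Another 4 of the 10 called neighbours, all running numbers, were nearly unread in the low-oil line. Novel05525, of 2490 bases, had 25.3, 36.5 and 68.3 RPKM as lowest, median and highest high-oil values, against 0, 0.0612 and 0.137 in the low-oil line (log2 difference 5.15). It stood higher than any of the 81 and missed the rule by its low-oil maximum. Its neighbour Novel05526, of 279 bases, belongs to the 81, and their high-oil values correlated at 0.70 over 18 libraries. Novel01277 averaged 13.7 ± 3.52 RPKM in high-oil embryos, against 0.0226 ± 0.0416 in the low-oil line (SD, n = 18 each; log2 difference 3.81). Its high-oil values correlated with those of its neighbour Novel01278 at -0.38. Novel02839, which lies in number between Novel02838 and Novel02840, and Novel12743, next to Novel12742, missed the rule at the high-oil limit, with lowest values of 0.347 and 0.499 RPKM (log2 differences 1.27 and 1.20). Neighbours below the minimum of 1 log2 unit also went this way or the other, such as Zm00001d048742 with 812 high-oil against 6 low-oil reads (log2 difference 0.91) and Novel10274 with 1 high-oil against 466 low-oil reads (-0.62).

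**Figure D5:**
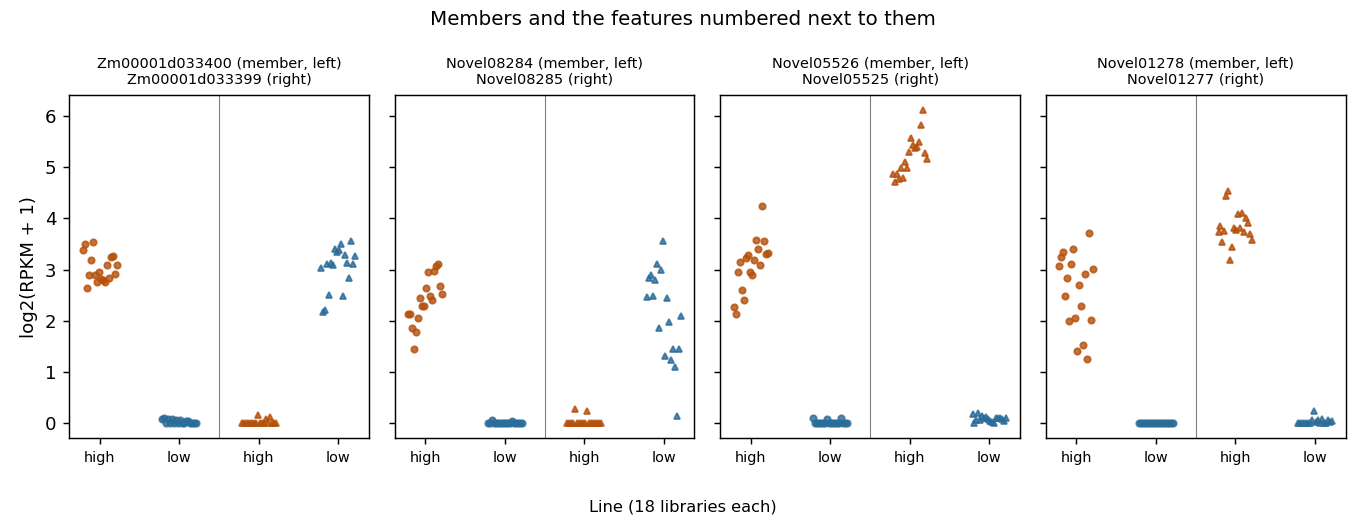
log2(RPKM + 1) in 18 high-oil (orange) and 18 low-oil (blue) libraries for 4 high-oil-only features (circles, left side of each panel) and the feature with the adjacent number (triangles, right side). Zm00001d033399 and Novel08285 have values up to 0.111 and 0.205 RPKM in the high-oil libraries but are read in the low-oil libraries, while Novel05525 and Novel01277 are read in the high-oil libraries but near 0 in the low-oil ones.

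The other 4 called neighbours were expressed in both lines. Zm00001d029704, next to Zm00001d029705, averaged 14.4 ± 8.80 RPKM in high-oil embryos, against 6.28 ± 5.03 in the low-oil line (log2 difference 1.15). Zm00001d024839, next to Zm00001d024838, averaged 5.23 ± 7.57 RPKM in high-oil and 22.9 ± 28.7 in low-oil embryos (log2 difference -1.68). Novel09504, next to Novel09505, averaged 3.73 ± 1.09 RPKM in high-oil and 16.8 ± 8.12 in low-oil embryos (log2 difference -1.77). Novel10028, next to Novel10029, averaged 2.18 ± 2.24 RPKM in high-oil and 8.24 ± 2.29 in low-oil embryos (log2 difference -1.78). These SDs are over the 18 libraries of a line and include the age course. Of the 10 called neighbours, 5 had the higher level in high-oil embryos and 5 had the lower.

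The 3 pairs of high-oil-only features with close numbers had weak correlations below 0. Novel14890 and Novel14891 averaged 4.27 ± 1.69 and 3.31 ± 1.76 RPKM in the high-oil line (SD, n = 18), and correlated at -0.33. Novel02838 and Novel02840 averaged 6.66 ± 1.92 and 5.87 ± 2.38 RPKM and correlated at -0.27. Novel11071 and Novel11073 averaged 2.66 ± 0.959 and 2.18 ± 0.581 RPKM and correlated at -0.10. At these levels the replicates of an age were far apart, as Novel14891 shows with 7.57, 3.34 and 6.97 RPKM at 35 days. Features that overlap, or that share reads with a near-identical copy, could not be told apart from single loci, since neither the positions nor the use of strand is given in the sources used here.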

How the data were processed

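RNA of 36 embryo libraries was measured by sequencing. The authors deposited 1 table of RPKM values with 1 column per library, and 0 columns belong to no sample. FastQC, TopHat2, Cufflinks and the build B73 RefGen_v4 are named, with no role or version, per the submitters' processing notes. How reads were counted, on which annotation release and with or without strand is not stated in the sources used here. RPKM depends on the totals, so a few very abundant transcripts lower all others.

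In each feature the deposited RPKM values were whole multiples of 1 read: 51853 of 51853 features above 0 resolved to whole reads within 0.0001 reads. Library totals and lengths follow from these steps, and summed reads differed from the totals by at most 1217. Reads served for depths, intervals (exact binomial, 95%), floors (3 reads) and an alternative.

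The 28048 features that reached 1 RPKM in 3 or more libraries were tested with limma 3.58.1 in R 4.3.3 on log2(RPKM + 1), with 1 mean per line and age over 36 libraries, a mean-variance trend and Benjamini-Hochberg adjustment over all of them. All 81 passed this filter through the rule itself. Fold changes on this scale understate those of low features. The fit was tested on simulated data in which all features shared 1 setting of spread and the changes were large. That run says nothing of calls near the minimum of 1 log2 unit.

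The members, lists and tests were chosen with earlier results of these data known. Features were named by a fixed rule: the 5 highest, the 2 largest called rises and falls of each comparison, those without low-oil reads, 3 on each side of each limit, the 2 with the largest mid-course excess among those called, the 3 steadiest and those with close numbers. All other features named were chosen after their values were seen.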

Additional observations from a re-analysis of the deposited data

How the results depend on the processing

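The number of high-oil-only features moved with the limits: 42 of the 81 stayed below 0.05 RPKM in the low-oil line and 46 reached 2 RPKM in the high-oil line, while 115 and 113 met the rule with limits of 0.2 and 0.5 RPKM. Median-of-ratios scaling gave 80, of which 76 were shared. With the adjusted p alone 29 features were called from 15 to 40 days, 17 from 15 to 25 days, 23 from 25 to 40 days and 47 over all ages, where the shares over all features tested were 54.8%, 42.4%, 28.6% and 63.7%. With a pseudocount of 0.1 these counts were 13, 6, 8 and 26, the first 3 of them over 1.5 times those reported (39.2%, 24.9%, 17.8% and 49.5% over all features). Limma-voom on the recovered reads gave 12, 7, 8 and 26 (38.5%, 24.1%, 17.1% and 47.5%). Without the 2 high-oil libraries of lowest correlation, a setting chosen after seeing the data, 4 were called between 40 and 25 days. With high-oil libraries left out in turn the counts ran from 7 to 13, 2 to 3, 2 to 5 and 16 to 22, and with any of the 36 libraries left out the rule gave 81 to 85 features. No filter, a minimum of 5 RPKM and a fit of the high-oil libraries alone kept each count within 1.5 times; the cause of the other shifts was not tested. With the replicate number as a block the counts were 8, 3, 2 and 18, as reported. Replicate numbers gave no sign of pairing the samples: deviations of same-numbered libraries of different ages correlated between -0.481 and 0.28. Those of other-numbered libraries correlated between -0.425 and 0.51. Deviations within a group of 3 sum to 0, so these values cannot exclude a pairing. At 0.1 RPKM, depth limits what can be said of the low-oil line to a few reads per library and feature.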
